A study of Mus musculus with 12 samples.

Results

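Transcripts of the 8 oligoadenylate synthetase genes Oas1a, Oas1b, Oas1c, Oas1g, Oas2, Oas3, Oasl1 and Oasl2 were followed in mouse bone marrow mesenchymal stem cells (MSCs). The genes were taken by name from a table of 55401 genes, and other genes of the oligoadenylate and interferon pathways were examined beside them. Oas1a, Oas1b, Oas1c, Oas1g and Oasl2 fell with TGF-β1, and each of these 5 rose when the supernatant of myeloid-derived suppressor cells (MDSCs) of either kind was given with it. Oas1a had the highest level with supernatant, 59.9 ± 1.51 FPKM (SD, n = 3) with M-MDSC supernatant against 3.12 ± 0.332 FPKM with TGF-β1 alone. FPKM is a level scaled by transcript length and library depth, so it can be compared between genes. Oasl1 did not pass the test in any of the 6 comparisons.

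The cells were C57BL/6 bone marrow MSCs from a commercial source, and 3 poly(A) mRNA libraries were sequenced for each of 4 groups. The control group was untreated. The TGFb1 group received TGF-β1 at 5 ng/mL, the TGFb1_M group TGF-β1 and the supernatant of monocytic MDSCs (M-MDSCs), and the TGFb1_G group TGF-β1 and the supernatant of granulocytic MDSCs (G-MDSCs). The MDSCs had been induced from bone marrow cells with GM-CSF and IL-6 and sorted as CD11b+Ly6G-Ly6C high (M-MDSCs) or CD11b+Ly6G+Ly6C low (G-MDSCs). There was no group with supernatant alone and none with medium that had not held MDSCs. MDSC products and their medium therefore cannot be told apart. The age of the mice that gave the MSCs is not given in the sources used here. The sources do not say whether the 3 libraries of a group came from separate cultures, so p-values measure only the spread between these libraries, which may be technical. In bulk RNA, fewer cells that transcribe a gene and less RNA per cell cannot be told apart.

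Oligoadenylate synthetases are sensors of double-stranded RNA, a sign of virus infection. On binding it, the active enzymes join ATP into short 2′-5′-linked oligoadenylates, which serve as second messengers of antiviral defence. The genes are classic targets of interferons, whose receptors act through a complex with Stat2 and Irf9 that binds the interferon-stimulated response element. In stromal cells, as in most cell types, the family rises when interferon is sensed. The mouse has many copies of the single human OAS1 gene. Oas1a and Oas1g encode active enzymes, Oas2 and Oas3 larger ones with repeated synthetase units, Oasl2 a protein with ubiquitin-like domains, and Oasl1 an inactive relative that restrains translation of Irf7. Oas1b carries a premature stop in common laboratory strains, is tied to susceptibility to flaviviruses, and is annotated as a polymorphic pseudogene.

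The libraries held 73977669 to 84565450 counts. MSC markers were present, with Itgb1 at 247 to 394 FPKM and Cd44 at 38.5 to 65.3 FPKM over all libraries, while Ly6a (Sca-1) was at 241 to 251 FPKM in the control group at 13.0 to 18.8 FPKM in the TGFb1 group, at 82.6 to 102.8 FPKM in the TGFb1_M and at 63.3 to 69.2 FPKM in the TGFb1_G group, and Eng and Nt5e were low throughout, at 0.321 to 1.66 FPKM. Of the 15 myeloid markers, Ptprc (CD45) stayed below 0.02 FPKM, and Mpo and Elane were at 0 in all libraries, while Lyz2 was at most 0.191 FPKM without and 0.651 to 2.29 FPKM with supernatant. Cd14 was at 22.7 to 23.5 FPKM in the control, 12.4 to 14.6 in the TGFb1, 18.5 to 21.4 in the TGFb1_M and 21.8 to 23.6 in the TGFb1_G group, and Ly6g and Ly6c2 were at 1.59 to 1.89 FPKM in the control and at most 0.308 FPKM in the other groups. The summed level of the myeloid list was 28.9 to 30.7 FPKM in the control, 15.6 to 17.1 in the TGFb1, 22.8 to 28.2 in the TGFb1_M and 28.5 to 31.3 in the TGFb1_G group, and the part of these markers in the members' values was not tested. Transcripts of other organs moved with supernatant: 11 kidney epithelium markers summed to 0.772 to 5.08 FPKM without supernatant, 13.3 to 85.2 FPKM in the TGFb1_M and 49.7 to 63.7 FPKM in the TGFb1_G group. The 8 liver markers summed to at most 0.313 FPKM without supernatant, to 0.651, 0.584 and 62.9 FPKM in the 3 TGFb1_M libraries and to 67.7 to 72.5 FPKM in the TGFb1_G libraries. Replicate 3 of the TGFb1_M group therefore stood apart from the other 2 in these transcripts, and its values are given separately beside the members.

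All the members lie on chromosome 5 (GRCm38), Oas1a at chr5:120896256-120907521 and Oas1g beside it at chr5:120876142-120887613. Oasl2 and Oasl1 stand side by side at chr5:114896936-114937915, a span of 40.98 kb. The other members lie in a cluster of 10 genes at chr5:120730333-120921652, 191.32 kb long, in the order Oas2, Oas3, Oas1e, Oas1c, Oas1b, Oas1f, Oas1h, Oas1g, Oas1a and Oas1d. Oas1d, Oas1e, Oas1f and Oas1h, the 4 copies in this cluster that are not members, summed to at most 0.20 FPKM in any library, so the genes with a level sat among near-silent copies. Oas1e, for example, had 4 counts in 1 control library and 0 in the other 11.

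**Figure D1:**
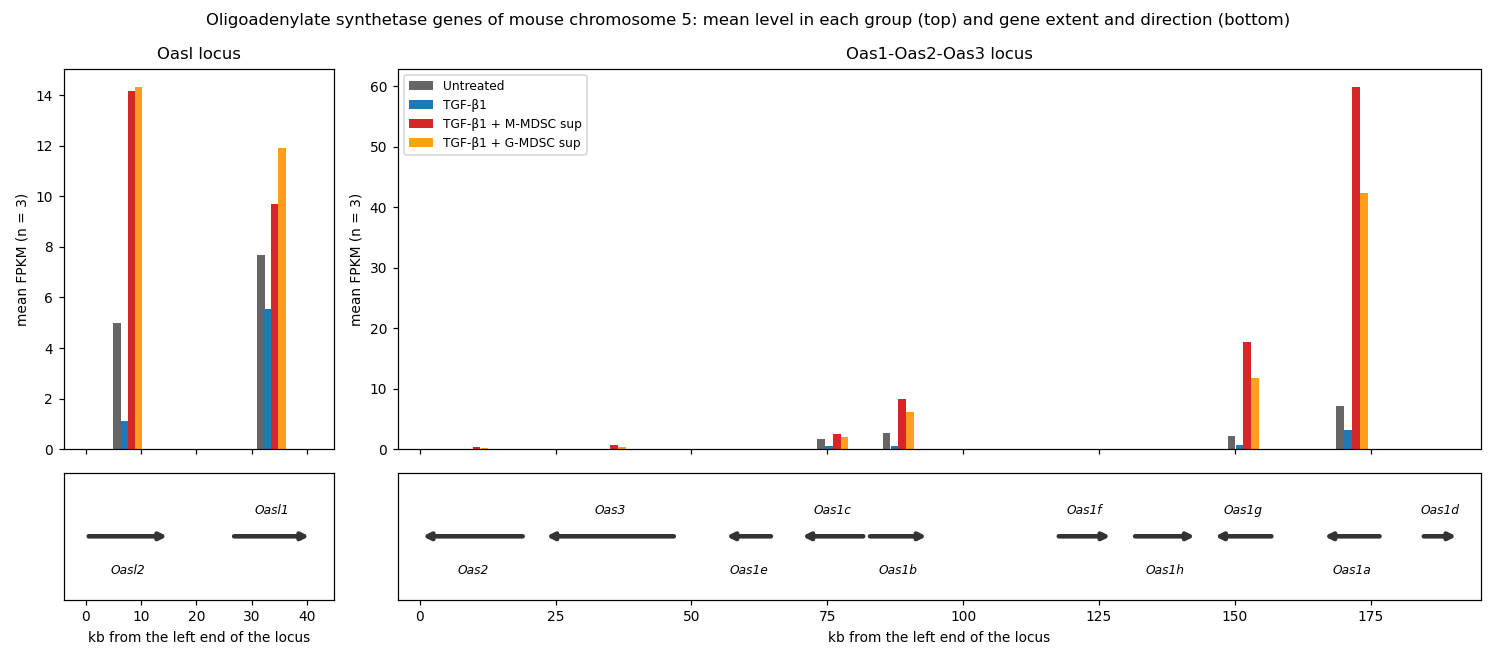
Mean FPKM of each group (bars from 0, n = 3 libraries) over the position of the gene in kb from the left end of its locus, with an arrow below for its extent and direction. The tallest bar is that of Oas1a (59.9 FPKM in TGFb1_M), followed in that group by Oas1g (17.8 FPKM) and Oasl2 (14.2 FPKM), while Oas1d, Oas1e, Oas1f and Oas1h between and beside them show no visible bar.

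The Oas1a and Oas1g transcripts are near copies. Over 1859 aligned bases Oas1a-201 and Oas1g-201 were 97.7% identical, and 32.4% of the 150-base windows of Oas1a (the read length) also occurred exactly in Oas1g. A read from such a window cannot be assigned to either gene without its mate, and how the counting treated such pairs is not given in the sources used here. How the counts are split between Oas1a and Oas1g is therefore uncertain. Their sum avoids the split, though it would be too low if such reads were discarded. No 150-base window of Oas1b, Oas1c, Oas2, Oas3, Oasl1 or Oasl2 occurred in another gene.

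Sequences upstream of the starts, from RefSeq (GRCm38.p6), were available for Oas1a, Oas1c, Oas1g, Oas3, Oasl1 and Oasl2 and were searched on both strands from 250 bases before to 50 bases after the start. The search used the paired half-sites of the interferon-stimulated response element (GAAA, any 2 bases, then GAAA), its shorter core AANNGAAA, and TTCNNNGAA, the palindrome of the gamma-activated site. The paired half-sites occurred in 1131 of 32851 promoters (3.44%), AANNGAAA, which they contain, in 23.9% and TTCNNNGAA in 8.30%. Oas1a, Oas1g, Oas1c and Oas3, 4 of the 6 members searched, held the paired half-sites. The 120 bases before each of these starts are shown, with every match to the paired half-sites in capitals, because they carry the letters these members share.
Oas1a: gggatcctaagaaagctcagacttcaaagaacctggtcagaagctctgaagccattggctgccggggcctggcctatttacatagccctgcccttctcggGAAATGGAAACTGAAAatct
Oas1g: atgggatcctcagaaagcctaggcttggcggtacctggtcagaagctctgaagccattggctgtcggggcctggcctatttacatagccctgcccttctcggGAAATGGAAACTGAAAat
Oas1c: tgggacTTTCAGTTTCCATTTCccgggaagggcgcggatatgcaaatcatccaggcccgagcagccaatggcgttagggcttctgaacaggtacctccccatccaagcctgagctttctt
Oas3: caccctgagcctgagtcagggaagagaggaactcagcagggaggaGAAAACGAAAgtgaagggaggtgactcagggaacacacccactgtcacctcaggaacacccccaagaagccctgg
They lie at chr5:120907526-120907645 (Oas1a), chr5:120887614-120887733 (Oas1g), chr5:120812515-120812634 (Oas1c) and chr5:120777660-120777779 (Oas3), all on the minus strand and written 5′ to 3′. Oas1a and Oas1g carry 2 overlapping matches each, from 20 and 18 bases before the start, and the joined element of 16 bases, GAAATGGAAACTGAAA, is the same in both. The same 16 bases, on the other strand, stand in the Oas1c sequence. That sequence fills the 120 bases between the starts of Oas1c and Oas1b, which are transcribed away from each other, so the element also lies from 22 to 7 bases before the annotated start of Oas1b. Of the 6 members searched only Oas1a held TTCNNNGAA, from 98 to 90 bases before its start.

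The 2 genes of the Oasl locus, and 2 near-silent copies, Oas1f and Oas1h, held no paired half-sites in these windows. Oasl1 had 3 matches to the shorter core and Oasl2 had 0. Oasl2 is shown because it rose with supernatant without these letters in the window, and Oas1h because it is a near-silent copy in the cluster, with no base in capitals in either.
Oasl2: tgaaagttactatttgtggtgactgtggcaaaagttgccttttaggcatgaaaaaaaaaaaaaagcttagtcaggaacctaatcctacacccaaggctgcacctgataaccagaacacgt
Oas1h: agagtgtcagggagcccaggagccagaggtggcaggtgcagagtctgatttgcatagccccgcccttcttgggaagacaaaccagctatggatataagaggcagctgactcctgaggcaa
They lie at chr5:114896814-114896933 and chr5:120861302-120861421, both on the plus strand. A match here is a description of letters, and a window without one says nothing about which factor acts on the gene.

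In untreated MSCs the family was present at low levels. Oasl1 (7.02, 8.22 and 7.78 FPKM) and Oas1a (6.75, 6.37 and 8.57 FPKM) were highest, and their ranges overlapped. Oasl2 followed at 4.90, 4.32 and 5.74 FPKM, below both. Oas1b (2.37 to 2.92 FPKM), Oas1g (2.05 to 2.13 FPKM) and Oas1c (1.55 to 2.02 FPKM) came next, each with a range apart from that of its neighbour in this order. Oas3 and Oas2, the larger enzymes, were near the floor, with 12 to 27 counts and 0 to 19 counts per library. The 8 members summed to 26.4 ± 2.48 FPKM (SD, n = 3).

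**Figure D2:**
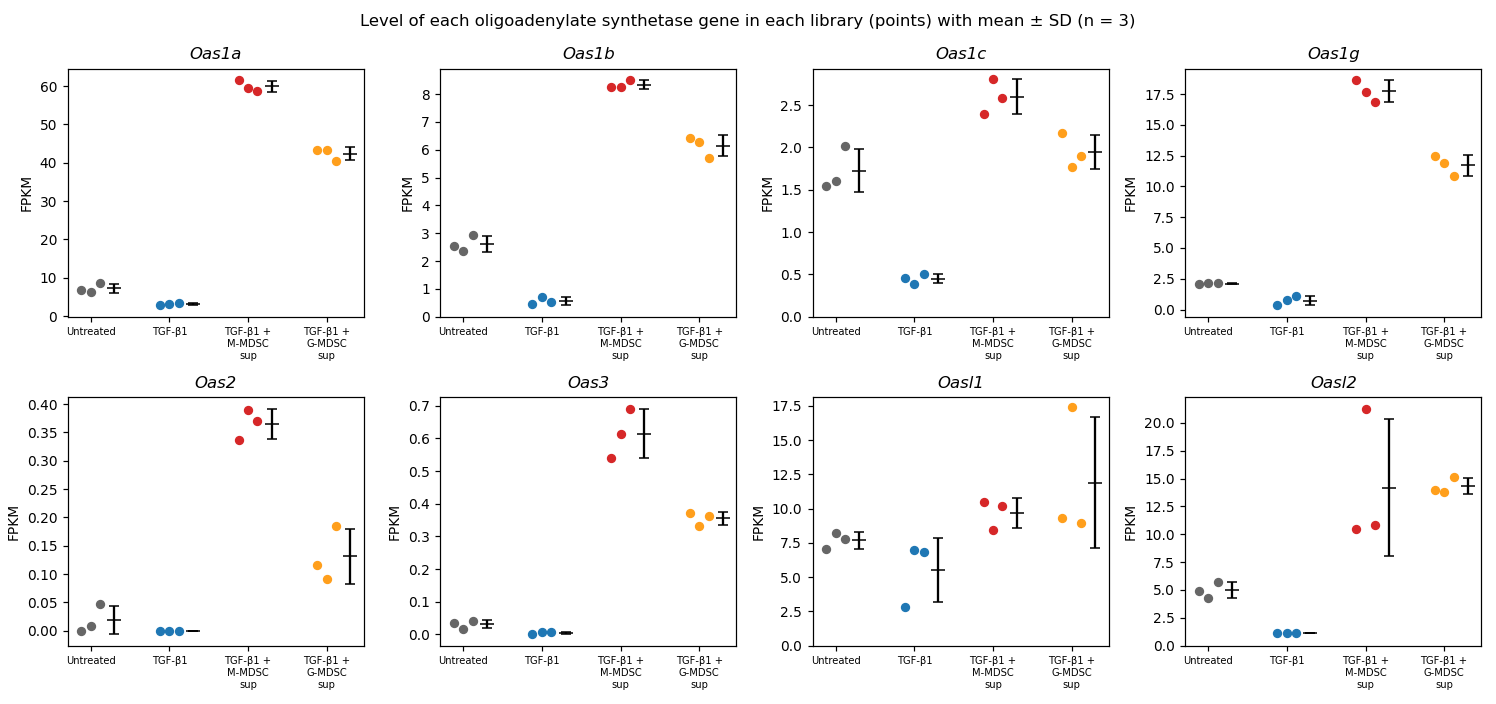
FPKM of each of the 8 genes (vertical axis, own scale per gene) in each of the 12 libraries (points, by group) with the group mean ± SD (n = 3). Points of the 2 supernatant groups lie above all TGFb1 points in each of the 8 panels, while 1 TGFb1_M library of Oasl2 (21.3 FPKM) and 1 TGFb1_G library of Oasl1 (17.4 FPKM) stand above the rest of their groups.

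TGF-β1 alone was set against the untreated state to ask what it does to the resting level of the pathway. Of the 6 members tested, 5 fell (Oas1a, Oas1b, Oas1c, Oas1g and Oasl2), by edgeR's quasi-likelihood test with Benjamini-Hochberg adjustment over 12016 genes, where 17.9% of all genes tested fell. Oas2 and Oas3 were under the filter of 1 FPKM in 3 libraries. The 6 tested members all reached 1 FPKM in every control library, so none had passed the filter only through a supernatant group. Oas1b was at 0.459, 0.725 and 0.525 FPKM in the TGFb1 libraries, all below the lowest control library, a log2 fold change of -2.13 ± 0.15 (SE, adjusted p = 1.52e-06). Oasl2 was at 1.11 FPKM in each of the 3 TGFb1 libraries and changed by -2.11 ± 0.24 on the log2 scale (adjusted p = 5.83e-05). Their levels were 4.38-fold and 4.31-fold lower than in untreated cells.

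Oas1c, at 0.457, 0.392 and 0.507 FPKM, changed by -1.87 ± 0.15 (adjusted p = 3.91e-06) and Oas1g, at 0.327, 0.770 and 1.09 FPKM, by -1.47 ± 0.30 (adjusted p = 0.00334) on the log2 scale in the edgeR fit. Oas1a was at 2.76, 3.19 and 3.41 FPKM, and its log2 fold change was -1.15 ± 0.11 (adjusted p = 1.22e-05), or 2.22-fold lower. Of the called members Oas1a fell least. Oasl1 was at 2.83, 6.98 and 6.81 FPKM, so that 1 library lay far below the other 2, which were just under the control range, and its log2 fold change was -0.41 ± 0.33 (adjusted p = 0.385). Without that library, TGFb1 replicate 1, the log2 fold change of Oasl1 was -0.10. The groups did not overlap in 7 of the 8 members, with the TGFb1 libraries lower, against 30.0% of the genes tested. That share leaves out Oas2 and Oas3.

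Oas2 had 0 counts in all 3 TGFb1 libraries against 0, 4 and 19 in the control libraries. Oas3 had 0, 4 and 4 counts against 23, 12 and 27, and in a fit without the filter it changed by -2.85 ± 0.56 on the log2 scale (edgeR, adjusted p = 0.00409), where 7.80% of all genes in that fit fell. At such depth single reads matter: 44.3% of all counts from 1 to 12 in the table were 4, 8 or 12, so that low counts often moved in steps of 4.

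M-MDSC supernatant was given with TGF-β1 to ask whether it changes the response of MSCs. Of the 6 tested members 5 rose against TGFb1, where 2.83% of all genes tested rose. Oas1a, an active synthetase, was at 61.6, 59.5 and 58.7 FPKM in the TGFb1_M libraries, each of them above every other group, and rose 18.9-fold, a log2 fold change of 4.24 ± 0.12 (edgeR, adjusted p = 3.96e-09). Oas1g was at 18.7, 17.7 and 16.9 FPKM and rose 23.8-fold, by 4.57 ± 0.33 on the log2 scale (adjusted p = 8.28e-06). With single libraries left out, the log2 fold change of Oas1g ranged from 4.22 to 5.00. Since the reads of Oas1a and Oas1g are partly shared, their summed counts were also taken. These were 13299, 12665 and 13036 in the TGFb1_M libraries and 536, 714 and 805 in the TGFb1 libraries. The sum separated the groups as both genes did.

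Oas1b was at 8.24, 8.25 and 8.51 FPKM, and its log2 fold change was 3.84 ± 0.16 (edgeR, adjusted p = 6.09e-08). Oas1c, which shares its start region with Oas1b, was at 2.40, 2.81 and 2.58 FPKM, and its log2 fold change was 2.49 ± 0.15 (adjusted p = 1.87e-06). The levels of this pair therefore lay apart although both had risen. Oasl2 was at 10.4, 21.3 and 10.8 FPKM, with replicate 2 well above the other 2 and all above the TGFb1 libraries, and had a log2 fold change of 3.65 ± 0.26 (adjusted p = 6.36e-06). Without that library it was 3.24. Oasl1 was at 10.5, 8.42 and 10.2 FPKM, above all TGFb1 libraries, but its log2 fold change of 0.78 ± 0.33 had an adjusted p of 0.263 in the edgeR fit. Without TGFb1 replicate 1 it was 0.47.

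Ranked by log2 fold change among the 12016 genes, Oas1g was 71st from the top, Oas1a 78th, Oas1b 86th, Oasl2 92nd and Oas1c 131st, and Oasl1 was 332nd. The genes ranked above them include liver and kidney markers, among them Alb, the first in rank and not called (adjusted p = 0.224), and Kap, the second. The median over the 6 tested members was 3.74, against -0.01 over all genes tested. Oas2 went from 0 counts in each TGFb1 library to 126, 144 and 144 counts. With 3 counts per library taken as the floor, this is 48.5-fold higher. That floor lies below the steps of 4 in which low counts often moved, so the ratio is not a lower bound. Oas3 was at 320, 359 and 425 counts, a log2 fold change of 7.13 ± 0.54 in the fit without the filter (edgeR, adjusted p = 1.33e-05), where 1.56% of all genes in that fit rose. Even so, Oas3 reached 0.615 ± 0.0747 FPKM and Oas2 0.365 ± 0.0266 FPKM (SD, n = 3), far under Oas1a. In all 8 members the TGFb1_M libraries lay above the TGFb1 libraries, as in 13.4% of the genes tested, which do not include Oas2 and Oas3. Replicate 3, the library with liver transcripts, was the highest of the 3 in FPKM for Oas1b and Oas3 and the lowest for Oas1a and Oas1g. For Oas1c, Oas2, Oasl1 and Oasl2 it lay between the other 2. Without replicate 3, 5 members rose against TGFb1, where 265 of 11971 genes rose. Kidney transcripts were raised in all 3 libraries, and their part in the result was not tested.

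**Figure D3:**
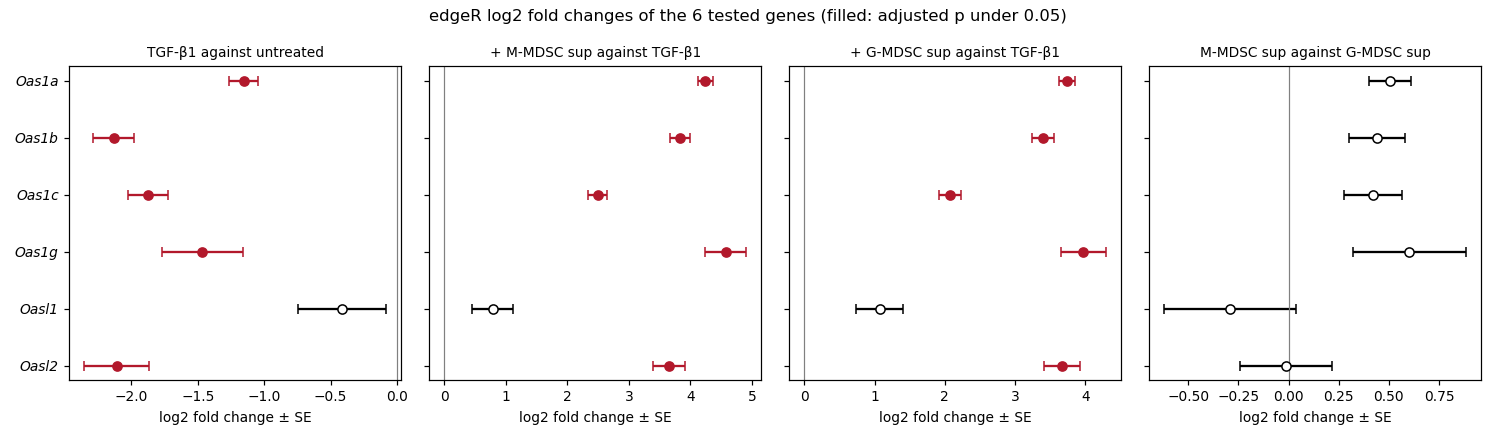
The edgeR log2 fold change ± SE (horizontal axis, own scale per panel) of the 6 tested genes in 4 comparisons, filled where the adjusted p is under 0.05. The points of Oas1a, Oas1b, Oas1c, Oas1g and Oasl2 are filled and left of 0 under TGF-β1 and right of 0 with either supernatant, and no point is filled between the supernatants.

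G-MDSC supernatant was tested in the same way, against the same 3 TGFb1 libraries, so this comparison and the preceding one are not independent. Again 5 of the 6 tested members rose, where 3.10% of all genes tested rose. Oas1a was at 43.3, 43.4 and 40.4 FPKM, between the TGFb1_M and the control libraries, and its log2 fold change was 3.74 ± 0.12 (edgeR, adjusted p = 1.27e-08). Oas1g, at 12.5, 11.9 and 10.8 FPKM, had a log2 fold change of 3.97 ± 0.32 (adjusted p = 2.50e-05). Oas1b was at 6.42, 6.30 and 5.72 FPKM (3.39 ± 0.16, adjusted p = 1.98e-07, log2 scale). Oas1c, at 1.77 to 2.17 FPKM, had a log2 fold change of 2.07 ± 0.15 (adjusted p = 9.91e-06), and its libraries overlapped the untreated ones.

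Oasl2 was at 14.0, 13.8 and 15.2 FPKM, a log2 fold change of 3.66 ± 0.26 (edgeR, adjusted p = 6.78e-06) that was nearly that seen with M-MDSC supernatant. Oasl1 was at 9.35, 17.4 and 8.97 FPKM, where replicate 2 stood far above the others, and its log2 fold change of 1.07 ± 0.33 had an adjusted p of 0.104. Without TGFb1_G replicate 2 the log2 fold change of Oasl1 was 0.70, and DESeq2 on all libraries gave 1.08 with an adjusted p of 0.00724, so the call on Oasl1 differs between tools, and it also passed with edgeR under the study's calling rule (a fold above 2 and an unadjusted p under 0.05). Oas2 had 49, 36 and 75 counts, 17.3-fold above the same floor of 3 counts per TGFb1 library, which is again not a lower bound. Oas3 had 249, 208 and 232 counts, a log2 fold change of 6.33 ± 0.53 without the filter (edgeR, adjusted p = 3.99e-05), where 1.84% of all genes rose. All 8 members were higher than TGFb1 without overlap, as were 13.2% of the genes tested, which do not include Oas2 and Oas3. Liver and kidney transcripts were high in all 3 of these libraries. Their part in the result was not tested.

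The supernatants were then compared with each other. The edgeR test called 0 of the 6 members, and 0.0999% of all genes tested were called higher and 0.0250% lower in TGFb1_M. At an unadjusted p under 0.05, 3 members (Oas1a, Oas1b and Oas1c) were higher in TGFb1_M, where 3.56% of all genes were. DESeq2 called 1 member, where it called 0.641% of all genes higher. The 4 Oas1 members were nonetheless higher in each TGFb1_M library than in any TGFb1_G library, by 1.42-fold for Oas1a, 1.36-fold for Oas1b, 1.34-fold for Oas1c and 1.51-fold for Oas1g as ratios of mean FPKM. For Oas1a the log2 fold change was 0.51 ± 0.10 (edgeR, adjusted p = 0.155), and it was called by DESeq2 (adjusted p = 0.000944) and by edgeR on these 2 groups alone (adjusted p = 0.0212), a fit that called 0.283% of all genes higher. Oas1g was called only in that fit of the 2 groups (adjusted p = 0.0439), against 0.60 ± 0.28 and an adjusted p of 0.804 in the fit of all groups. Oas2 and Oas3 were also higher in TGFb1_M without overlap, by 2.78-fold and 1.73-fold in mean FPKM. That makes 6 of 8 members, or 4 of the 6 tested, against 5.97% of the genes tested. Oasl1 and Oasl2 overlapped between the supernatants, with log2 fold changes of -0.29 ± 0.33 and -0.01 ± 0.23 (edgeR, adjusted p = 0.968 and 1.00). The Oasl pair thus gave values on either side of 0 when single libraries were left out.

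Against the untreated control, members were above their resting level in both supernatant groups. With M-MDSC supernatant 5 of 6 rose, where 16.4% of the genes tested rose, and with G-MDSC supernatant 4 of 6 rose, where the share was also 16.4%. These comparisons share their control libraries. Oas1a was 8.50-fold (adjusted p = 1.10e-08) and 5.99-fold (adjusted p = 3.72e-08) above control, and Oas1g 8.62-fold and 5.68-fold (edgeR, adjusted p = 1.81e-05 and 8.04e-05). Oas1b was 3.26-fold and 2.40-fold and Oasl2 2.91-fold and 2.94-fold above control, all called. Oas1c rose by 0.62 ± 0.14 on the log2 scale with M-MDSC supernatant (adjusted p = 0.00631), and with G-MDSC supernatant it differed from control by 0.20 ± 0.14 (edgeR, adjusted p = 0.320) and overlapped it. Oasl1 was at 0.37 ± 0.33 and 0.66 ± 0.33 on the log2 scale (edgeR, adjusted p = 0.431 and 0.153), and the latter was 0.29 without TGFb1_G replicate 2.

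The make-up of the family differed between the groups. Oas1a gave 27.3% ± 1.93 of the summed FPKM of the members in control cells and 28.1% ± 5.76 with TGF-β1, but 52.9% ± 2.52 with M-MDSC and 47.7% ± 1.80 with G-MDSC supernatant (SD, n = 3). Oasl1 was the largest single share with TGF-β1, 46.4% ± 9.37, and made up 8.57% ± 1.29 and 13.2% ± 4.41 of the sum with M-MDSC and G-MDSC supernatant. The 4 Oas1 members together held 51.7% ± 1.83 of the sum in control, 43.3% ± 6.22 in TGFb1, 78.2% ± 3.50 in TGFb1_M and 70.0% ± 3.16 in TGFb1_G libraries. The sum itself was 11.5 ± 3.11, 113 ± 5.11 and 88.9 ± 5.76 FPKM in TGFb1, TGFb1_M and TGFb1_G. These shares are descriptions, given without a test.

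The 3 partner genes of the oligoadenylate pathway that were tested were not called with either supernatant. Abce1, a ribosome recycling factor, was at 63.5 to 81.8 FPKM in all libraries. It rose by 0.24 on the log2 scale with TGF-β1 (edgeR, adjusted p = 9.47e-04), and its log2 fold changes with the supernatants were 0.00 ± 0.04 and 0.04 ± 0.04. Pde12, a phosphodiesterase that degrades the oligoadenylates, had log2 fold changes of -0.10 ± 0.07, 0.00 ± 0.07 and 0.01 ± 0.07 under TGF-β1, M-MDSC and G-MDSC supernatant, with adjusted p of 0.305 or more. Akap7, an anchor protein of protein kinase A with a domain that can also degrade the oligoadenylates, fell with TGF-β1 by 1.15 on the log2 scale (adjusted p = 3.14e-04) and had log2 fold changes of -0.01 ± 0.17 and 0.04 ± 0.17 with the supernatants.

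The parallel sensors of double-stranded RNA were read beside the family. Of 8 genes tested, 7 rose with M-MDSC and 7 with G-MDSC supernatant, and 7 fell with TGF-β1, against the shares of 2.83%, 3.10% and 17.9% of all genes. The largest log2 fold changes with M-MDSC supernatant were those of Zbp1, a sensor of Z-form nucleic acid (4.71 ± 0.11, adjusted p = 7.95e-10), Dhx58 (3.76 ± 0.11, adjusted p = 5.82e-09) and Ddx58, which encodes RIG-I (3.32 ± 0.05, edgeR, adjusted p = 1.02e-10). Mavs, the adaptor below Ddx58 and Ifih1, was not called with either supernatant, with log2 fold changes of -0.10 ± 0.05 and -0.15 ± 0.05. Adar, which edits double-stranded RNA, rose with both supernatants but was at 0.03 ± 0.12 under TGF-β1 (adjusted p = 0.871). Ddx58 was the one sensor called between the supernatants, higher in TGFb1_M by 0.35 ± 0.05 (edgeR, adjusted p = 0.0204).

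Upstream of the family, the 10 listed interferon genes were near 0 in the MSC RNA, which does not report on proteins in the supernatants. None of the 10 ligand genes on the list reached 0.13 FPKM in any library, and Ifnb1, Ifna1, Ifna2, Ifna4 and Ifng had 0 counts in all 12. Of the 15 tested genes of interferon signalling, 5 rose with M-MDSC and 6 with G-MDSC supernatant, and 9 fell with TGF-β1, against 2.83%, 3.10% and 17.9% of all genes. Among those that rose with M-MDSC supernatant were Usp18, a brake on the type I interferon receptor (6.04 ± 0.22, adjusted p = 2.05e-08), Irf7 (4.53 ± 0.17, adjusted p = 2.22e-08) and Irf9 (2.56 ± 0.09, edgeR, adjusted p = 1.93e-08), on the log2 scale against TGFb1. The receptor genes Ifnar1 and Ifnar2 and the kinase genes Jak1 and Tyk2 were not called with either supernatant, with adjusted p from 0.325 to 0.879. A list of 16 tested interferon-stimulated genes outside the family was read in the same way. Of these, 16 rose with each supernatant and 15 fell with TGF-β1, against the same shares of all genes. Their median log2 fold changes were 4.06, 3.26 and -2.05, and the largest with M-MDSC supernatant was that of Mx2 (6.60 ± 0.47, edgeR, adjusted p = 6.44e-06). Against the untreated control, 13 of the 16 were higher and 2 lower with M-MDSC supernatant, where 1966 and 2268 of 12016 genes were. With G-MDSC supernatant 11 were higher and 3 lower, where 1971 and 2216 of 12016 genes were.

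**Figure D4:**
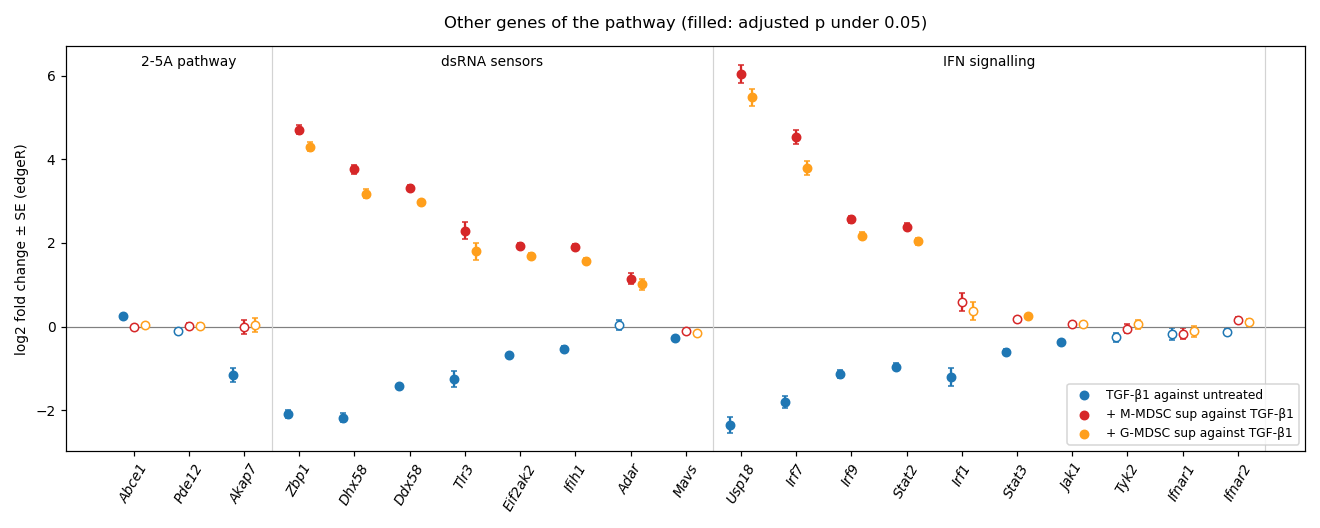
Log2 fold change ± SE (edgeR, vertical axis) of genes of the oligoadenylate pathway, the double-stranded RNA sensors and interferon signalling in 3 comparisons (colours), filled where the adjusted p is under 0.05. Zbp1, Dhx58, Ddx58, Usp18, Irf7 and Irf9 are well above 0 with either supernatant and below 0 under TGF-β1, while Abce1, Pde12, Mavs, Jak1, Tyk2, Ifnar1 and Ifnar2 lie near 0 with either supernatant, and Jak1 and Mavs are filled and below 0 under TGF-β1 (-0.36 and -0.27).

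To see which genes varied most like the family over the 12 libraries, the log2(FPKM + 1) of each tested gene was correlated with the mean standardised profile of the 6 tested members. The most alike non-members were Apol9a (Pearson r = 0.994), Ifitm3 (0.993), Ddx58 (0.989), Irf9 (0.987) and Usp18 (0.985). Of the members themselves, Oas1b (0.992) was the most typical and Oasl1 (0.796) the least, with Oas1g at 0.974, Oas1a at 0.973, Oasl2 at 0.969 and Oas1c at 0.927. The mean profile holds each member itself, which raises these values, so they are not set against those of the non-members. Apol9a, for example, was at 15.0 ± 0.660, 5.63 ± 0.464, 47.5 ± 1.26 and 38.6 ± 0.894 FPKM in the control, TGFb1, TGFb1_M and TGFb1_G libraries (SD, n = 3), the same order of groups as Oas1a. The points share the same 12 libraries in 4 groups, so these values describe the group pattern and carry no p-value.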

How the data were processed

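Poly(A) RNA of 12 MSC libraries was sequenced as paired reads of 150 bases. The submitters' processing notes name cutadapt 1.9, HISAT2 2.0.4 and StringTie 1.3.4d, edgeR and DESeq2. The genome was GRCm38, and the tool that counted reads is not given in the sources used here. The authors deposited raw counts per gene and FPKM values that they calculated, in which a count of 0 stands as 0.0001 and was read here as 0. The deposited fold changes and p-values of their own comparisons were not used.

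The test covered 12016 of 55401 genes, those that reached 1 FPKM in 3 or more of the 12 libraries. TMM scaling (factors 0.978 to 1.03) was applied to the counts, which were tested with edgeR 4.0.16 in R 4.3.3, by the two-sided quasi-likelihood F test in 1 fit of the 4 groups. Benjamini-Hochberg adjustment ran over the 12016 genes, and a gene rose or fell when its adjusted p was under 0.05. On simulated data for TGFb1_M against TGFb1 with 12016 genes, 87 of 100 genes changed 2-fold and 96 of 100 changed 4-fold were recovered, with 13 false calls. Named genes were all members, the other family genes, the partners of the oligoadenylate pathway, up to 3 genes per pathway list with the largest change in TGFb1_M, any gene needed to show a list's call (Mavs, Adar, Ifnar1, Ifnar2, Jak1 and Tyk2, chosen after their values were seen), marker genes, and the 5 non-members most alike in profile. The members and lists were chosen with earlier results of these data known. Alternatives covered filter, scaling, tool (DESeq2 1.42.0, limma 3.58.1), pseudocount, groups fitted, replicate block, counts divided by 4, the study's calling rule and each library left out. Transcripts came from the GENCODE annotation of GRCm38 and promoters from RefSeq (GRCm38.p6), with 8 of 12 family genes matched. The planned comparison of protein sequences was not run, and some listed genes are not reported here and were left out of the list counts. Libraries with the same replicate number did not deviate together (mean correlation -0.00384 over 18 pairs, 0.00197 over 36 pairs with different numbers), so the number was not used as a pair.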

Additional observations from a re-analysis of the deposited data

How the results depend on the processing

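A total of 612 log2 fold changes of tested members came from 22 alternative fits and from the study's calling rule on the fit of all groups. Leave-one-out fits counted only where the library left out belonged to the comparison. Of the 612, 601 kept their direction and their side of the threshold, 6 passed the threshold newly, 1 no longer passed and 4 changed sign. For both supernatants against TGFb1 and for TGFb1 against control, the number of members called was 5 whichever library was left out. In these fits, of 11841 to 11990 genes tested, 256 to 344 rose with M-MDSC and 293 to 405 with G-MDSC supernatant. With TGF-β1, 1782 to 2154 genes fell. Against control the number was 5 (TGFb1_M) and 4 (TGFb1_G), where 1646 to 1981 and 1608 to 1985 genes rose. Between the supernatants the count was 0 in every such fit, where 6 to 21 genes were higher in TGFb1_M and 2 to 32 lower. It was 1 with DESeq2 and 2 with edgeR on these 2 groups alone. Over all genes, 12 were called higher in TGFb1_M in the fit of all groups, 77 with DESeq2 and 34 on these 2 groups alone, and the cause was not tested. All 4 sign changes were log2 fold changes of TGFb1_M against TGFb1_G of genes near 0. With single libraries left out, that of Oasl1 ranged from -0.46 to 0.084 (above 0 without TGFb1_G replicate 2) and that of Oasl2 from -0.43 to 0.17 (0.031, 0.17 and 0.15 without TGFb1_G replicate 3, TGFb1_M replicate 1 and TGFb1_M replicate 3). The call on Oas1c against control with M-MDSC supernatant was lost under the study's rule of a fold above 2, by its construction. Oasl1 passed in TGFb1_G against TGFb1 under that rule and with DESeq2, and in TGFb1_M against control with those 2 groups alone (adjusted p = 0.0418). Limma on log2(FPKM + 1) lowered the fold changes of low genes, as the pseudocount does, for example to 2.58 for Oas1b and 1.31 for Oas1c in TGFb1_M against TGFb1.

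With the replicate number as a block, 5 members were called higher in TGFb1_M and 5 in TGFb1_G against TGFb1, where 290 and 339 of 12016 genes were. Against control 5 were lower in TGFb1, where 2071 of 12016 genes were. Between the supernatants 0 were called, where 6 genes were higher in TGFb1_M and 2 lower. These counts of members are the same as without the block. The replicate numbers did not pair the libraries. Depth limits Oas2 and Oas3, which had at most 425 counts per library.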
